A study of Mus musculus with 8 samples.

Results

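The cells described here are lymphatic endothelial cells (LEC) of a transplanted mouse melanoma that carry transcripts of Lsr, Postn and Foxp2. They were chosen from single-cell data of the LEC sort by 5 scores, each the mean of log1p(UMIs per 10000) over a short set of genes, expressed as a z-score over the eligible cells. Eligible cells had under 20 unique molecular identifiers (UMIs) of the pigment genes Dct, Tyrp1, Pmel and Tyr together and at least 1 UMI of Prox1, Lyve1 or Mmrn1. A cell was taken when the set of Lsr, Postn and Foxp2 had the highest z of the 5 sets and that z was over 0.5. This gave 585 cells, 14.6% of the 4019 eligible cells (exact Clopper-Pearson interval at the 95% level, 13.5 to 15.7%), out of 4407 cells of the LEC sort and 7635 cells in all. Because measured transcripts chose the cells, every difference between them and other LEC is a description, and no test was made.

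Lymphatic capillaries take up fluid and cells from tissue through overlapping, loosely joined endothelial flaps. They drain into precollecting and collecting vessels, which have continuous junctions, a basement membrane and valves set by FOXC2, GATA2, NFATC1 and integrin alpha-9 in the mouse. Lsr encodes angulin-1, a protein that recruits tricellulin to the corners where 3 cells meet. Postn encodes periostin, a secreted matricellular protein. Foxp2 encodes a forkhead transcription factor that is flow-responsive in mouse collecting lymphatic endothelium.

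The study sorted endothelial cells from MT-ret melanoma, whose fragments had been implanted on the flank of 10 pooled C57BL/6N mice, and took 10000 LEC and 10000 blood endothelial cells (BEC) for droplet sequencing. All animals carried the tumor, and the labels give no age, no sex, no tumor-free group and no markers for the sort. The labels list 4 libraries per sort, but cells carry only the name of their sort, so each sort was 1 sample and nothing here has a replicate check. Eligible LEC of the other sets were used as comparison: 782 Cd24a Scn3a cells, 745 Tppp3 Igfbp5 cells, 437 Npy Ndufa4l2 Pgf cells, 511 Cd74 Ccl2 Vcam1 cells, and 959 cells in which no set passed 0.5.

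Median depth was 11391 UMIs in Lsr Postn Foxp2 cells and 10483 UMIs in the other 3434 eligible cells, and median mitochondrial shares were 3.23% and 3.19%. Of the LEC sort, 279 cells were pigmented and 109 had no UMI of the 3 lineage genes. The sorts shared 34 cell barcodes, 6 of them in Lsr Postn Foxp2 cells, and no barcode was repeated within a sort. The deposited values did not spread like independent molecules. Of all nonzero values in the LEC sort, 14.9% were 1, 17.4% were 2, 20.8% were 3 and 16.5% were 4, against 4.84% equal to 5. For 6296 genes with a mean of 0.05 to 0.5 per cell, the median ratio of variance to mean was 3.13, where independent counts give about 1; the cause was not tested. All counting intervals below were therefore computed on counts divided by 3.13. They reflect counting error alone and say nothing of animals, libraries or sorts.

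Lsr lies on chromosome 7 (30957770 to 30973464, minus strand), Postn on chromosome 3 (54361109 to 54391037, plus strand) and Foxp2 on chromosome 6 (14901349 to 15441977, plus strand) in GRCm38, the assembly of mm10. Cmah (chromosome 13, 24327404 to 24477377, plus strand) and Mfap2 (chromosome 4, 141010418 to 141015984, plus strand) had the highest ratios in these cells among well detected genes outside the rule, as described below. The 250 bases before the start of Lsr, Postn, Cmah and Mfap2 are shown because the genes were high in the same cells. They come from RefSeq promoter windows of GRCm38.p6; 4 of the 5 genes matched that table, and Foxp2 is named only. Capitals mark matches to any of 4 short motifs on either strand. The forkhead motif was searched as TGTTTAC, and the motif of the GATA factors as AGATAA. The motif of the NFAT factors was searched as TGGAAA, and that of Sp and KLF factors as GGGCGG.
Lsr: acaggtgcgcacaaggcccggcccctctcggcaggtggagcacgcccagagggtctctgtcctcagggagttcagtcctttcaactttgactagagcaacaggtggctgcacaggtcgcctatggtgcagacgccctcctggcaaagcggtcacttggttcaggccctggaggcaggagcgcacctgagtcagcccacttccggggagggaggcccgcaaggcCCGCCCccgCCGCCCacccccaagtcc
Postn: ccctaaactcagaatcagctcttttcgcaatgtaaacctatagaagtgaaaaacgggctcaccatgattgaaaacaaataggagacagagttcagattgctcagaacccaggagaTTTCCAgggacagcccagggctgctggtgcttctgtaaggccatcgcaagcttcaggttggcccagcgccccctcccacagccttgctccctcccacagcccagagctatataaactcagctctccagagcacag
Cmah: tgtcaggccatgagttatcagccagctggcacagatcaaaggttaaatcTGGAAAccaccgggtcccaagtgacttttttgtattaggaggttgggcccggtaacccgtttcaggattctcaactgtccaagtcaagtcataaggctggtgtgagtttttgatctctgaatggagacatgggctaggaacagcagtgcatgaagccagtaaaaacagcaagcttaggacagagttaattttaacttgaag
Mfap2: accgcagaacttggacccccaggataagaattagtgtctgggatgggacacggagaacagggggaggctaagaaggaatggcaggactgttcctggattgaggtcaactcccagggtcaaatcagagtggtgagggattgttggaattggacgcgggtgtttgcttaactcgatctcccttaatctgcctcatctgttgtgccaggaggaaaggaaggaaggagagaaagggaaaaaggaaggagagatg
The Lsr window (chr7:30973470-30973719, minus strand) held 2 GGGCGG matches, at 27 and 18 bases before the start. The Postn window (chr3:54360857-54361106, plus strand) held 1 TGGAAA match, 135 bases before the start, and the Cmah window (chr13:24327154-24327403, plus strand) held 1, at 201 bases. The Mfap2 window (chr4:141010174-141010423, plus strand) held none, and TGTTTAC and AGATAA were in none of the 4. Of all 32851 windows of this length, 3.17% held TGTTTAC, 9.99% AGATAA, 18.6% TGGAAA and 32.7% GGGCGG. A match describes letters and not a bound site, and the 4 windows shared no motif of those searched.

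The rule's own genes set the scale of the selection. Levels are CPM, the UMIs of a gene per 1000000 UMIs, both summed over the cells of a group. Postn was at 392 CPM (368 to 418) in Lsr Postn Foxp2 cells and 9.14 CPM (7.60 to 10.9) in the other eligible LEC. Foxp2 was at 162 CPM in Lsr Postn Foxp2 cells and 11.8 CPM in the other cells, and Lsr at 92.2 CPM and 3.16 CPM. No gene was carried by all of the cells: after thinning each cell to 5000 UMIs, Postn had a UMI in 51.6% of Lsr Postn Foxp2 cells and 2.56% of other eligible cells, Foxp2 in 42.6% and 3.64%, and Lsr in 22.7% and 1.05%. Pigmented cells of the same sort, whose summed lymphatic lineage genes were at 2676 CPM against 30593 CPM in other eligible LEC, had Foxp2 in 6.81% (18.8 CPM), Postn in 2.15% and Lsr in 1.08% after the same thinning. The Foxp2 share of other eligible LEC, from which the rule took the cells richest in Foxp2, was below that of pigmented cells and is not read as expression. Whether pigmented cells hold Foxp2 of their own was not tested. In the BEC sort the 3 genes were at 1.26 (Foxp2), 3.39 (Postn) and 1.57 CPM (Lsr).

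Among the other LEC sets the order of the 3 genes varied, and all lay far below the selected cells. Postn was at 21.1 CPM in Cd74 Ccl2 Vcam1 cells, 17.6 CPM in Tppp3 Igfbp5 cells, 4.96 CPM in Cd24a Scn3a cells, 4.40 CPM in Npy Ndufa4l2 Pgf cells and 0.947 CPM in cells of no set. Foxp2 was at 18.2 CPM in Cd24a Scn3a cells, 15.4 CPM in Tppp3 Igfbp5 cells and between 4.39 and 11.8 CPM in the other 3 sets. Lsr was highest in Tppp3 Igfbp5 cells, at 6.98 CPM, and at most 4.04 CPM elsewhere. These low values follow from the rule, which sends a cell rich in the 3 genes out of those sets.

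Most Lsr Postn Foxp2 cells showed 1 gene of the 3. A UMI of 1 gene was found in 373 cells (63.8%), of 2 genes in 180 cells (30.8%) and of all 3 in 32 cells (5.47%). Of the cells with 1 gene, 181 had Postn, 145 had Foxp2 and 47 had Lsr. The threshold was soft: the lowest z was 0.50, and the nearest cell below it in which this set was highest was at 0.496. In all, this set was highest in 261 eligible cells at or under 0.5. Most of these lay at a z of 0 or less, as a limit of 0 raised the selection from 585 to 620 cells. A cell without a UMI of the 3 genes has a z of -0.47, so the 261 cells are not read as near the threshold. Another 210 cells passed 0.5 but had a higher z for another set. The 34 selected cells with z between 0.5 and 0.7 had 79.7 CPM of Postn, 58.3 CPM of Foxp2 and 19.4 CPM of Lsr, while the 22 cells with z between 0.3 and 0.5 had 15.1, 93.8 and 6.05 CPM of the same genes.

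A cell with a UMI of 1 of the 3 genes more often had a UMI of another. Over all eligible cells, thinned to 5000 UMIs, Postn was detected in 27.8% of the 169 cells with an Lsr UMI (21.2 to 35.2%) and in 8.91% of the 3850 cells without one (8.03 to 9.85%). Foxp2 was detected in 24.9% of cells with an Lsr UMI (18.5 to 32.1%) and in 8.62% of cells without one (7.76 to 9.55%). Foxp2 was also detected in 17.4% of the 390 cells with a Postn UMI (13.8 to 21.6%) and 8.43% of those without (7.55 to 9.38%). When the score was made from 2 genes, the gene left out was still higher in the selected cells, by a log2 ratio of 2.35 for Lsr, 1.76 for Postn and 1.69 for Foxp2. Leaving out a gene was an alternative chosen after seeing the data.

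Among genes outside the rule that reached 50 CPM and were detected in 25% of the cells, Cmah, Mfap2 and Tmem158 had the highest ratios. Cmah, which encodes the hydroxylase that makes N-glycolylneuraminic acid, was at 221 CPM (202 to 240) in Lsr Postn Foxp2 cells and 37.0 CPM (33.9 to 40.4) in other eligible LEC, 5.96-fold higher (5.26 to 6.74). Mfap2, a microfibril-associated glycoprotein of elastic fibres, was at 151 CPM and 31.4 CPM, 4.79-fold higher (4.15 to 5.52). Tmem158, which encodes a transmembrane protein, was at 150 CPM and 38.1 CPM, 3.94-fold higher (3.43 to 4.51). Of the 7672 genes with a mean level of 10 CPM or above, 76 (0.991%) passed 2-fold upward and 148 (1.93%) downward, 224 (2.92%) in all. Lists of genes below are counted by the same 2-fold limit, and as the cells were chosen by their transcripts nothing is read from these shares.

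Each of these 3 genes was also higher than in every other set taken alone. Cmah was at 68.1 CPM in Tppp3 Igfbp5 cells, 45.5 CPM in cells of no set, 35.8 CPM in Cd74 Ccl2 Vcam1 cells, 14.8 CPM in Cd24a Scn3a cells and 11.6 CPM in Npy Ndufa4l2 Pgf cells. Mfap2 lay between 28.3 and 39.2 CPM in 4 sets and at 9.69 CPM in Npy Ndufa4l2 Pgf cells. Tmem158 ranged from 20.4 CPM in Cd24a Scn3a cells to 61.9 CPM in Tppp3 Igfbp5 cells, and was at 53.1 CPM in BEC. Cmah and Mfap2 were nearly absent from BEC, at 4.59 and 3.37 CPM.

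**Figure D1:**
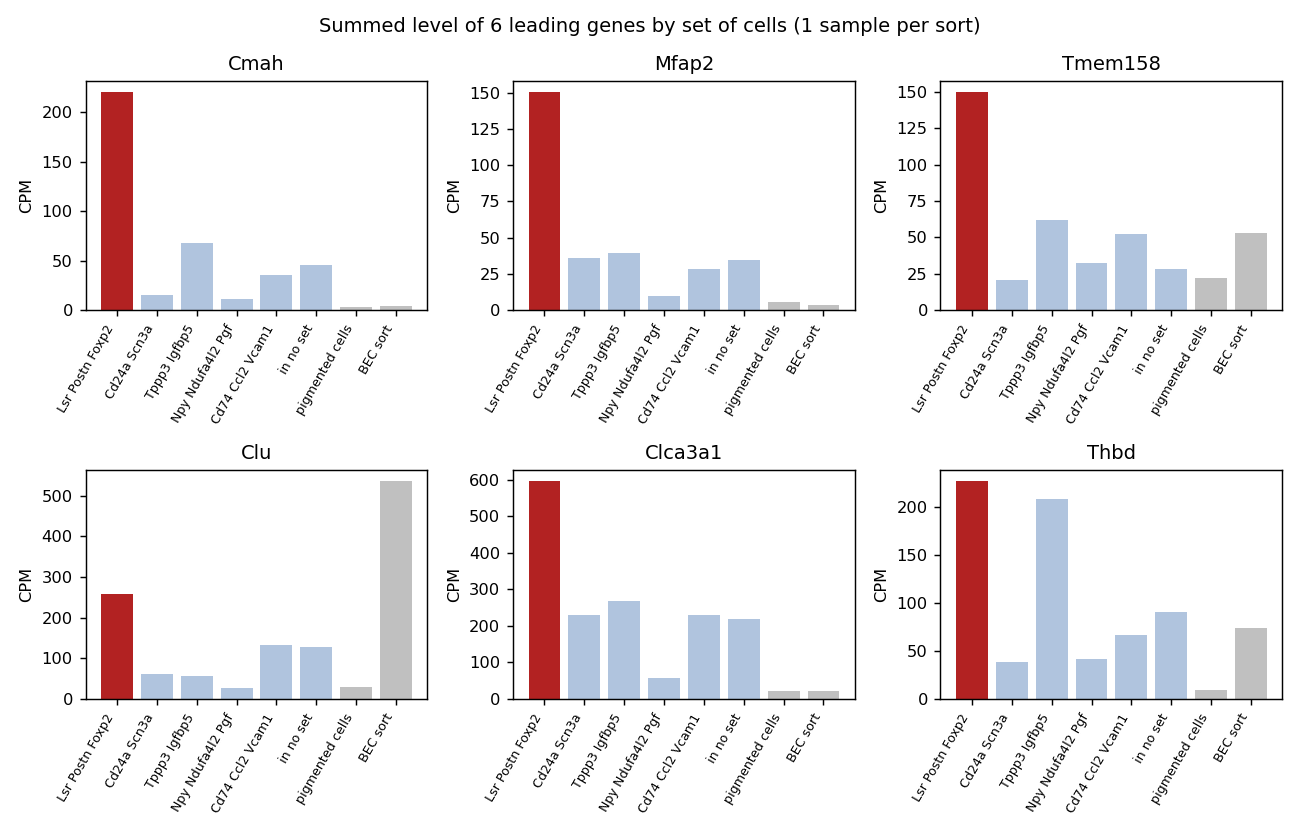
Summed level in CPM of 6 of the leading genes in Lsr Postn Foxp2 cells (red), the other LEC sets (blue) and the pigmented cells and BEC sort (grey), 1 sample per sort and no error bars. Cmah stands at 221 CPM in Lsr Postn Foxp2 cells and at most 68.1 CPM in another LEC set, while Thbd is nearly as high in Tppp3 Igfbp5 cells (208 CPM) and Clu is highest in BEC (537 CPM).

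Among secreted products, clusterin (Clu), an extracellular chaperone, was at 257 CPM in Lsr Postn Foxp2 cells and 85.9 CPM in other eligible LEC, 2.99-fold higher (2.71 to 3.30). The lipopolysaccharide-binding protein Lbp was at 1016 CPM and 481 CPM, 2.11-fold higher (2.01 to 2.21). The proteoglycan biglycan (Bgn) was 2.65-fold higher (2.39 to 2.92) and the collagen-triple-helix protein Cthrc1 2.11-fold higher (1.86 to 2.39). These last 2 leaned on few cells, since 1 cell held 15.5% of the Bgn UMIs and 11.2% of the Cthrc1 UMIs. Without cells carrying stromal UMIs, an alternative added after the data were seen, the ratios were 2.16 for Bgn and 1.89 for Cthrc1. Bgn and Cthrc1 were also short of 2-fold against cells of no set. With the score made without Postn Bgn was short of it, and with the score made without Lsr so were Lbp and Cthrc1.

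Among surface proteins, Clca3a1, an accessory protein of chloride channels that marks mouse lymphatic endothelium, was at 598 CPM in Lsr Postn Foxp2 cells and 212 CPM in other eligible LEC, 2.82-fold higher (2.65 to 3.01). Thrombomodulin (Thbd), the cofactor for protein C activation, was at 227 CPM and 91.5 CPM, 2.48-fold higher (2.24 to 2.74). The TGF-beta pseudoreceptor Bambi was 2.42-fold higher (2.17 to 2.70), the serotonin receptor Htr2b 2.26-fold higher (2.07 to 2.46) and aminopeptidase N (Anpep) 2.22-fold higher (1.79 to 2.73). Thbd and Htr2b were shared with the Tppp3 Igfbp5 cells, in which they reached 208 and 309 CPM. Tmem176b was 2.104-fold higher (1.91 to 2.32), but pigmented cells held 844 CPM of it. The alkaline ceramidase Acer3 was 2.37-fold higher (2.01 to 2.79) and the inositol pyrophosphate hydrolase Nudt4 2.07-fold higher (1.96 to 2.19). With the score made without Postn, Thbd, Htr2b, Anpep and Tmem176b were short of 2-fold. Against cells of no set, Bambi, Tmem176b and Nudt4 were short of it. In the 145 selected cells with Foxp2 alone, Thbd was at 103 CPM and Htr2b at 140 CPM. Eligible cells with none of the 3 genes had 86.6 and 124 CPM.

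The lowest ratios were held in part by genes of the other sets, and Angpt2, Igfbp3 and Aqp1 were also among them. Pgf, Ccl2, Scn3a and Tppp3 belong to the other sets of the rule and were low by construction. Angiopoietin-2 (Angpt2), the context-dependent ligand of the TIE2 receptor, was at 90.0 CPM (78.5 to 103) in Lsr Postn Foxp2 cells and 399 CPM (388 to 409) in other eligible LEC, 4.43-fold lower (3.87 to 5.09). Igfbp3, which binds insulin-like growth factors, was at 62.0 CPM and 281 CPM, 4.54-fold lower (3.85 to 5.37). The water channel Aqp1 was at 57.9 CPM and 239 CPM, 4.12-fold lower (3.48 to 4.91).

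Several of these genes were high in 1 or 2 of the other sets. Angpt2 reached 1074 CPM in Npy Ndufa4l2 Pgf cells and 662 CPM in Cd24a Scn3a cells but 62.4 CPM in Tppp3 Igfbp5 cells, below the Lsr Postn Foxp2 cells. Galectin-3 (Lgals3) was 3.99-fold lower (3.56 to 4.49), with 2167 CPM in Npy Ndufa4l2 Pgf cells and 3254 CPM in pigmented cells. Igfbp3 and Aqp1 were at 5638 and 4665 CPM in BEC. Of the clusters of eligible cells described below, cluster 10 was highest in both, at 4335 and 2788 CPM. It was led by blood endothelial genes and held 66 cells, 7 of them Lsr Postn Foxp2 cells. The part of its cells in these ratios was not tested beyond leaving out clusters 9, 10 and 12. Igfbp3 and Aqp1 then stayed at least 2-fold lower. The neuropeptide gene Nmb was 3.08-fold lower (2.77 to 3.44), the scaffold gene Mpp6 3.13-fold lower and the actin regulator Gmfg 2.65-fold lower. Ckb, Gap43 and heme oxygenase 1 (Hmox1) were 2.56-fold, 2.52-fold and 2.44-fold lower. Against cells of no set, Mpp6 and Hmox1 were not 2-fold lower. Among the clusters described below, both were highest in cluster 0, at 418 CPM (Mpp6) and 491 CPM (Hmox1). In that cluster 304 of 470 cells were Npy Ndufa4l2 Pgf cells.

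**Figure D2:**
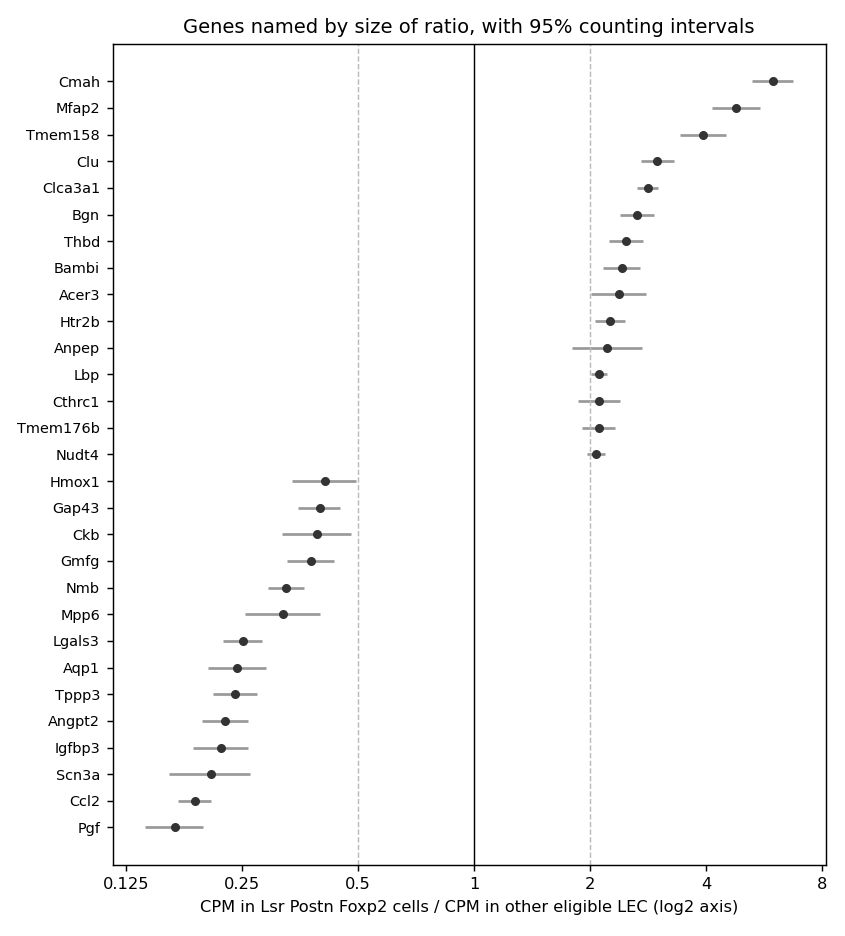
Ratio of CPM in Lsr Postn Foxp2 cells to CPM in other eligible LEC, on a log2 axis, for 15 genes with the highest and 14 with the lowest ratios among those at 50 CPM and in 25% of cells of the higher group, with counting intervals at the 95% level. Ratios run from 5.96 for Cmah at the top to 0.167 for Pgf at the bottom, and dashed lines mark 2-fold.

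The level of the leading genes differed by which of the 3 rule genes a cell showed. Cmah was at 402 CPM in the 37 cells with Lsr and Postn, 347 CPM in the 32 cells with all 3 genes and 309 CPM in the 53 cells with Lsr and Foxp2. It was at 184 CPM in the 181 cells with Postn alone, 169 CPM in the 47 cells with Lsr alone and 80.5 CPM in the 145 cells with Foxp2 alone. Mfap2 was also highest where several genes were seen, with 334 CPM in cells with all 3 genes, 208 CPM with Lsr and Foxp2 and 70.6 CPM with Foxp2 alone. Angpt2 was highest with Foxp2 alone, at 179 CPM, and lowest with Lsr and Postn, at 19.9 CPM, with 107 CPM in cells with all 3 genes. Depth moved with these patterns: the median was 18174 UMIs in cells with all 3 genes, 15495 UMIs with Lsr and Foxp2 and 10186 UMIs with Foxp2 alone, and its part in the order was not tested.

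Along the score itself, which chose the cells, the levels were graded. Cells with z over 0.5 to 1.5 (227 cells) had 112 CPM of Cmah and 92.2 CPM of Mfap2. Cells with z over 1.5 to 3 (261 cells) had 249 and 154 CPM, and the 97 cells with z over 3 had 394 and 273 CPM. Eligible cells at a z of 0 or less, all of them in other sets or in no set, had 30.1 and 26.5 CPM. The 140 eligible cells with z over 0 to 0.5, also not selected, had 72.8 and 54.3 CPM. Plvap, an endothelial diaphragm protein, was at 1343, 1701 and 1979 CPM in the 3 rising bins and at 769 CPM at a z of 0 or less. Lyve1 was at 1593, 1374 and 1103 CPM in the rising bins, against 2158 CPM at a z of 0 or less. Median depth hardly differed between the 3 bins of selected cells, at 11414, 11197 and 11555 UMIs. It was 15372 UMIs at a z over 0 to 0.5 and 10266 UMIs at a z of 0 or less.

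**Figure D3:**
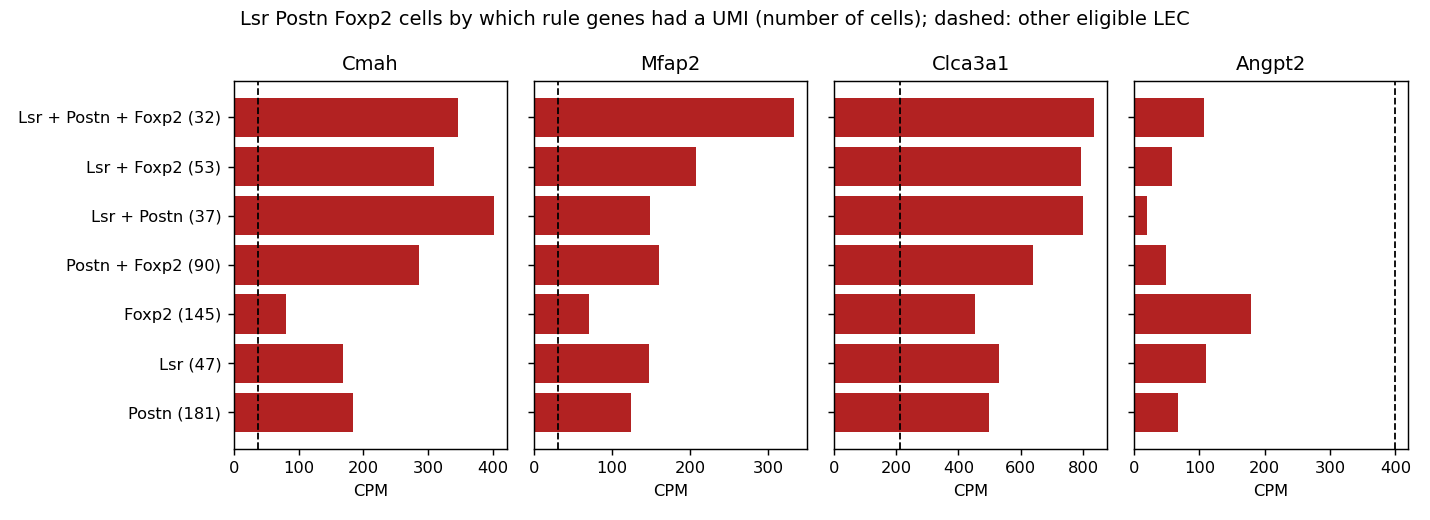
Level in CPM of Cmah, Mfap2, Clca3a1 and Angpt2 in Lsr Postn Foxp2 cells, split by which of the 3 rule genes had a UMI (number of cells in parentheses), with the level in other eligible LEC as a dashed line. Cells with Foxp2 alone have the lowest Cmah (80.5 CPM) and the highest Angpt2 (179 CPM) of the 7 patterns.

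To see how the cells lay in structure that the rule's genes did not draw, the eligible cells were clustered without the 13 genes of the 5 sets. Of 14 clusters, cluster 3 held 333 of the 585 Lsr Postn Foxp2 cells (56.9%, 52.8 to 61.0%) and 330 of the other eligible cells (9.61%). Its leading genes by fold were Mfap2, Cmah, Slco2a1, Tmem158, Duoxa2, Clca3a1, Clu, Bambi, Unc45b and Thbd. The share grew with the number of rule genes seen, from 44.8% of cells with 1 gene to 77.2% with 2 and 84.4% with all 3. Within it Postn was at 258 CPM, against 27.5 CPM in the other clusters, Foxp2 at 101 against 20.8 CPM and Lsr at 74.3 against 4.66 CPM.

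The next highest clusters differed from gene to gene. Postn was at 91.1 CPM in cluster 10, which was led by the blood endothelial genes Aplnr, Flt1 and Nrp1 and held 7 Lsr Postn Foxp2 cells. It was at 57.3 CPM in cluster 5, where 338 of 521 cells were Tppp3 Igfbp5 cells. Foxp2 was next highest in cluster 6, at 37.8 CPM, and cluster 2, at 35.0 CPM. Lsr was next highest in the 2 smallest clusters, cluster 12 (26.9 CPM, led by platelet genes) and cluster 13 (24.8 CPM), each of 41 cells.

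The 330 other cells of cluster 3 carried its leading genes without passing the rule. Cmah was at 297 CPM in the Lsr Postn Foxp2 cells of the cluster and 162 CPM in its other cells, Mfap2 at 208 and 147 CPM and Clca3a1 at 764 and 590 CPM. The 252 Lsr Postn Foxp2 cells outside cluster 3 had lower levels, with 104 CPM of Cmah, 62.0 CPM of Mfap2 and 342 CPM of Clca3a1, against 23.8, 19.2 and 172 CPM in the other eligible cells outside it. They lay mainly in clusters 6 (63 cells) and 5 (50 cells), whose leading genes included Thbs1 and Lfng in cluster 6 and Slco2b1 and Ptn in cluster 5.

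**Figure D4:**
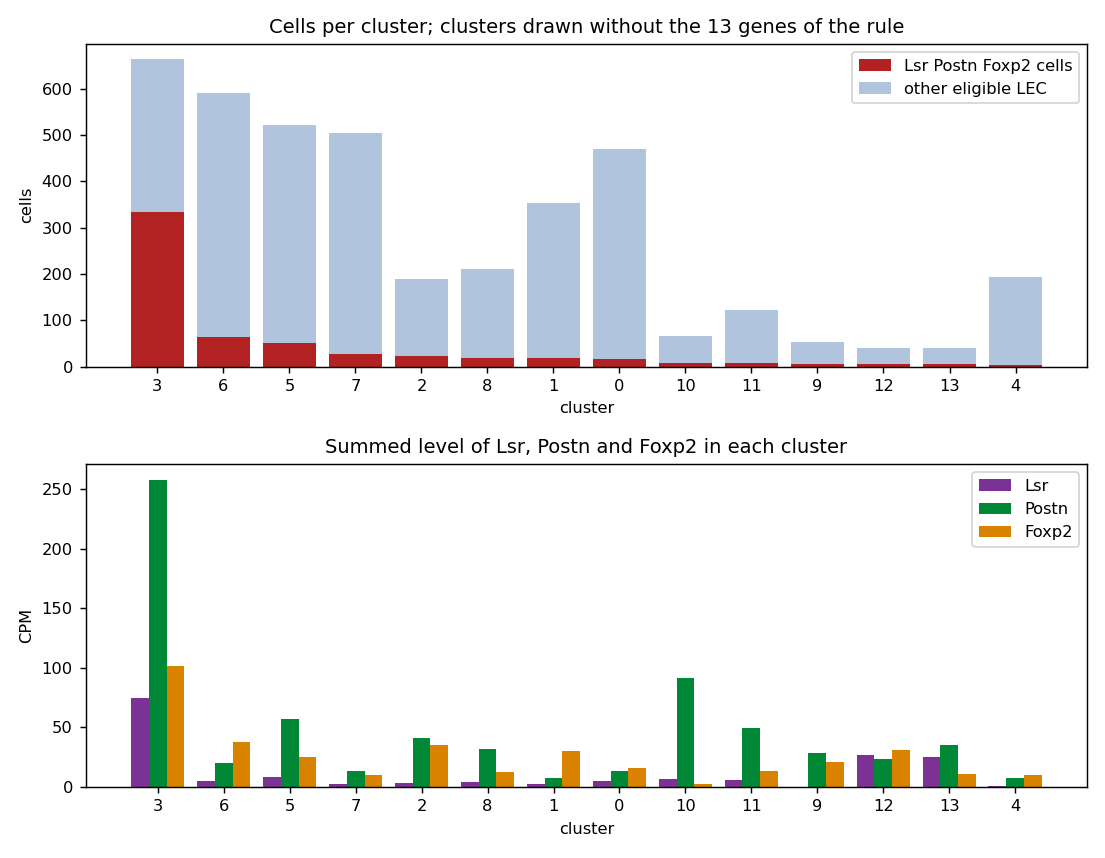
Top, number of eligible LEC in each of 14 clusters drawn without the rule's genes, with Lsr Postn Foxp2 cells in red and other eligible LEC in blue. Bottom, summed CPM of Lsr, Postn and Foxp2 in each cluster: all 3 are highest in cluster 3, at 74.3, 258 and 101 CPM.

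Over the 14 clusters, genes with a pattern most like the mean of Lsr, Postn and Foxp2 included Kng2 (Pearson r 0.967), Cmah (0.949), Parm1 (0.939) and Gxylt2 (0.921). The clusters are parts of 1 sample, and cluster 3 set most of the likeness. Without it r was 0.545 for Kng2, 0.727 for Cmah, 0.280 for Parm1 and 0.277 for Gxylt2. Parm1 was at 40.6 CPM in Lsr Postn Foxp2 cells and 5.07 CPM in other eligible LEC, Kng2 at 18.9 and 2.29 CPM, and Gxylt2 at 19.1 and 4.60 CPM. Only genes with a mean of 10 CPM or more over both groups were ranked. Kng2, Parm1 and Gxylt2 reached that mean only through the Lsr Postn Foxp2 cells, so nothing is read from their rank.

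A label of collecting-like endothelium was checked against 16 collecting vessel and valve genes and 9 capillary genes. Of the 15 collecting and valve genes that reached the minimum of 10 CPM, 0 passed 2-fold upward and 2 downward, with a median log2 ratio of -0.03 and 6 of 15 above 0. Foxc2 came nearest, at 103 CPM in Lsr Postn Foxp2 cells and 58.2 CPM in other eligible LEC, 1.77-fold higher (1.53 to 2.04). Gja4, the valve connexin 37, was at 439 and 257 CPM, 1.71-fold higher (1.59 to 1.83), and Gata2 at 59.2 and 37.1 CPM, 1.60-fold higher (1.32 to 1.92). These 3 genes were also above 1 in ratio to the Cd24a Scn3a cells (1.497, 1.35 and 1.25 for Foxc2, Gja4 and Gata2) and to the Tppp3 Igfbp5 cells (1.49, 1.63 and 1.14).

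The other valve genes did not follow. Nfatc1 was at 70.0 CPM in Lsr Postn Foxp2 cells and 76.4 CPM in other eligible LEC, and Itga9 at 45.3 and 47.1 CPM. Cldn11, a claudin found in lymphatic valves, was at 34.6 CPM and 46.6 CPM, a ratio of 0.743 (0.584 to 0.933). Fibronectin (Fn1) was at 299 and 605 CPM, 2.02-fold lower (1.88 to 2.19), and the receptor Neo1 at 8.52 and 29.998 CPM, 3.52-fold lower (2.27 to 5.77). Neither was 2-fold lower under every alternative: the log2 ratio of Fn1 was -1.24 to -0.83, short of 2-fold in 6 alternatives, and that of Neo1 was -0.93 against cells of no set. Against Tppp3 Igfbp5 cells, 0 of 14 measured collecting and valve genes were 2-fold apart in either direction. Against Cd24a Scn3a cells, 0 of 15 were higher and 3 lower. Gja1, Klf4, Celsr1, Pkd1, Piezo1, Adgrg3 and Esam had ratios between 0.868 and 1.24. Vangl2 stayed below the minimum, at 8.25 and 6.76 CPM. Neo1, Cldn11, Klf4 and Nfatc1 led another cluster, cluster 1, with 145 Cd24a Scn3a cells and 18 Lsr Postn Foxp2 cells among 352.

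Capillary genes were likewise close to other LEC. Of 8 measured, 0 were 2-fold apart in either direction, with a median log2 ratio of -0.09 and 3 of 8 above 0. Lyve1, the hyaluronan receptor that is low in collecting vessels of mouse skin, was at 1413 CPM in Lsr Postn Foxp2 cells and 2107 CPM in other eligible LEC, a ratio of 0.670 (0.647 to 0.695). The acute-phase protein Ptx3 was at 163 and 309 CPM, a ratio of 0.527 (0.474 to 0.584), and Fgl2 at 1338 and 952 CPM, 1.40-fold higher (1.35 to 1.46). Podoplanin (Pdpn), Stab1, Ackr2, Nrp2 and Ccl21a had ratios between 0.848 and 1.25, and near-identical copies of Ccl21 make the last uncertain. Stab2 stayed below the minimum. The valve and capillary lists thus do not carry the label at 2-fold, and the cells are called here by their 3 genes.

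**Figure D5:**
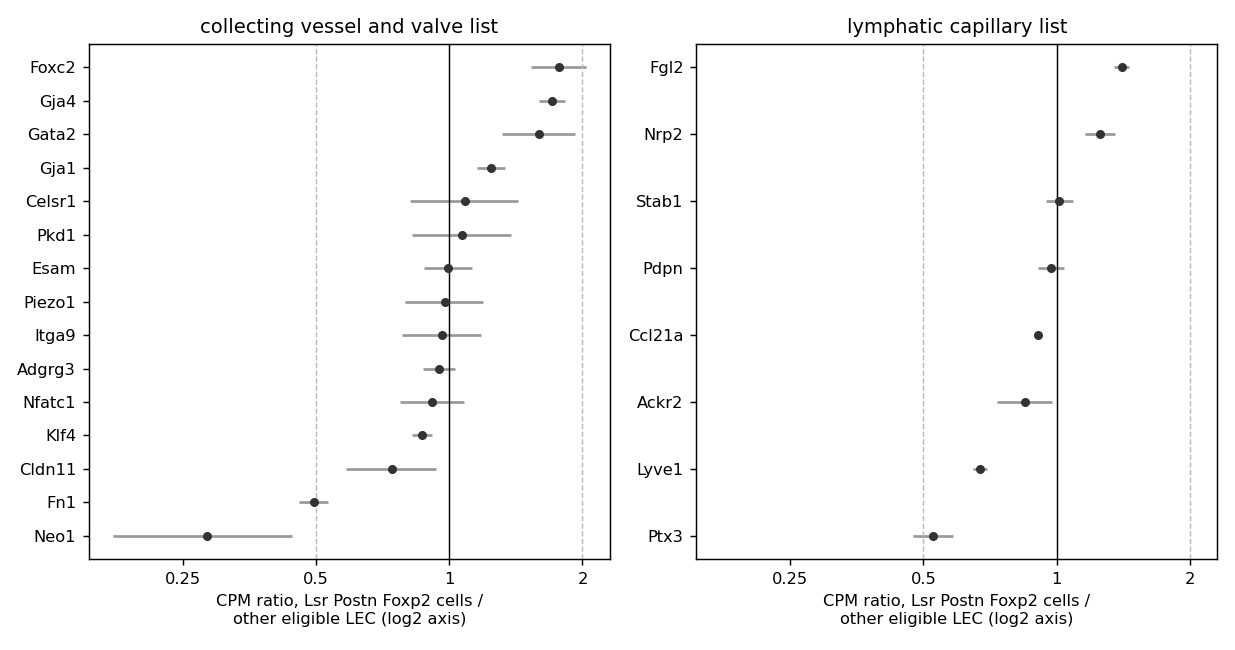
Ratio of CPM in Lsr Postn Foxp2 cells to CPM in other eligible LEC, on a log2 axis with counting intervals at the 95% level, for the 15 measured collecting vessel and valve genes and the 8 measured capillary genes. Foxc2, Gja4 and Gata2 lie between 1.60 and 1.77, Lyve1 at 0.670, Neo1 at 0.284, and dashed lines mark 2-fold.

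The lymphatic identity of the cells was that of the sort. Of 15 lineage genes, 0 were 2-fold apart, with a median log2 ratio of -0.04. Prox1, the transcription factor that sets lymphatic fate, was at 264 CPM in Lsr Postn Foxp2 cells and 266 CPM in other eligible LEC, and the VEGF-C receptor Flt4 at 325 and 336 CPM. Mmrn1 was at 991 and 854 CPM. Prox1, Lyve1 and Mmrn1 were part of the eligibility rule for both groups.

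Of the angiopoietin-Tie pathway, which governs junctions and valve growth in lymphatic vessels, 5 genes were measured. Angpt2 was the 1 gene at least 2-fold lower, and 0 were at least 2-fold higher. Tek, which encodes the receptor TIE2, was at 102 CPM (89.9 to 116) in Lsr Postn Foxp2 cells and 53.2 CPM (49.4 to 57.3) in other eligible LEC, 1.92-fold higher (1.66 to 2.22). It was 3.27-fold higher (2.56 to 4.19) than in Cd24a Scn3a cells but 1.11-fold (0.929 to 1.33) in ratio to Tppp3 Igfbp5 cells, which also had low Angpt2. Tie1 (149 and 145 CPM), the phosphatase gene Ptprb (80.2 and 72.4 CPM) and Foxo1 (99.1 and 90.5 CPM) had ratios of 1.03 to 1.11. Angpt1 was at 0.917 CPM and 0.353 CPM, Angpt4 had 0 UMIs in the Lsr Postn Foxp2 cells, where a count of 0 allows up to 1.23 CPM at the 3.13 factor, and Svep1 had 0 in both groups.

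Most genes of flow response and nitric oxide were near the level of other LEC. Of 10 measured, 2 were at least 2-fold higher and 0 lower, Thbd and endothelin-1 (Edn1), the second at 22.8 CPM in Lsr Postn Foxp2 cells and 8.65 CPM in other eligible LEC, with 16.1% of its UMIs in 1 cell. The shear-responsive factor Klf2 was at 3033 and 2571 CPM, 1.18-fold higher (1.15 to 1.21), while Klf4 had a ratio of 0.868 (0.822 to 0.916). Cav1 and Slc9a3r2 had ratios of 1.04 and 0.963. Of genes singled out after their values were seen, endothelial nitric oxide synthase (Nos3) was at 67.0 and 35.7 CPM, 1.88-fold higher (1.56 to 2.24).

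No Notch, Wnt or guidance gene measured was 2-fold apart. Of 9 Notch genes measured, 0 were 2-fold apart, with a median log2 ratio of 0.32. The Notch target Hey1 was at 63.7 CPM in Lsr Postn Foxp2 cells and 40.8 CPM in other eligible LEC, 1.56-fold higher (1.30 to 1.87), Notch1 1.31-fold and Hes1 1.16-fold higher, and Nrarp had a ratio of 0.709. All 8 measured Wnt genes had a ratio above 1, beside 3841 of all 7672 genes measured, with 0 at 2-fold and a median of 0.24, and the receptor Fzd6 was highest of the named ones at 117 and 69.9 CPM. Among 13 guidance genes 0 were 2-fold apart; ephrin-B2 (Efnb2), singled out after its value was seen and required for lymphatic valves in the mouse, was at 103 and 54.5 CPM, 1.90-fold higher (1.64 to 2.19). Sema3d had a ratio of 1.28, Sema3a 1.03, Sema6a 0.884 and Efna1 0.801.

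Junction and matrix genes were led by the rule's own members. Of 13 tight and tricellular junction genes measured, Lsr itself was the 1 gene at least 2-fold higher, and 0 were lower. Claudin-5 (Cldn5) was at 2707 CPM in Lsr Postn Foxp2 cells and 2161 CPM in other eligible LEC, 1.25-fold higher (1.22 to 1.29), while F11r, Pard6g and Pecam1 had ratios of 0.943 to 1.02. Tricellulin (Marveld2) was at 2.097 and 3.30 CPM, below the minimum, and the other angulins Ildr1 and Ildr2 were at 0 and 0.917 CPM in the Lsr Postn Foxp2 cells. Of 18 matrix genes, Postn, Bgn and matrix Gla protein (Mgp) were at least 2-fold higher and Fn1 lower. Mgp, at 38.5 and 14.96 CPM, had a ratio of 1.502 without cells carrying stromal UMIs. Without those cells, 2 of 17 matrix genes were at least 2-fold higher and 4 lower, and the list's median log2 ratio was 0.01 in place of 0.18. The elastic fibre gene Fbln5 was at 524 and 315 CPM, 1.66-fold higher (1.56 to 1.77), and Sparc and Cyr61 had ratios of 1.18 and 0.955. Of 11 basement membrane genes 0 were higher and 1, Nid2, lower, and of 8 integrin genes 0 were 2-fold apart, with Itgb4 1.76-fold higher (1.49 to 2.06).

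Of 33 endothelial transcription factors measured, Foxp2 was the 1 at least 2-fold higher and 0 were lower. Its relatives Foxp1 (264 CPM in Lsr Postn Foxp2 cells, 239 CPM in other eligible LEC) and Foxp4 (14.4 and 11.97 CPM) had ratios of 1.10 and 1.20. Id3 was 1.19-fold higher and Tcf4 had a ratio of 0.858. Of 15 BMP and TGF-beta genes, Bmp4 was at least 2-fold higher (28.8 and 8.79 CPM) and Inhbb at least 2-fold lower (15.7 and 45.4 CPM), with Eng, Smad1 and Tgfb1 at ratios of 0.919, 0.876 and 0.732. Of 7 VEGF genes 2 were lower, Pgf of the rule and Flt1, and Kdr was 1.32-fold higher (1.20 to 1.44). Connexin and sphingosine 1-phosphate genes had 0 of 4 and 0 of 5 genes 2-fold apart, with the transporter Spns2 1.47-fold higher (1.26 to 1.70).

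Hypoxia and glycolysis genes were lower than in the other eligible cells as a whole, which include the Npy Ndufa4l2 Pgf set. Of 11 hypoxia genes measured, 0 were higher and 3 at least 2-fold lower (Bnip3, Ankrd37 and Ero1l), all 11 had a ratio under 1, and the median log2 ratio was -0.96, beside 0.00024 over all genes measured. Adm was at 167 CPM in Lsr Postn Foxp2 cells and 326 CPM in other eligible LEC, Higd1a at 207 and 401 CPM, Ndrg1 at 265 and 368 CPM and Ddit4 at 128 and 154 CPM. Of 15 glycolysis genes, 2 were at least 2-fold lower (Slc16a3 and Slc2a1) and the median was -0.65; Pkm was at 354 and 622 CPM and Ldha at 646 and 905 CPM. The distance was smaller against other sets taken alone: against Cd24a Scn3a cells the medians were -0.27 for hypoxia and -0.05 for glycolysis, against Tppp3 Igfbp5 cells -0.13 and -0.16, and against cells of no set -0.38 and -0.24. Summed over the list, hypoxia genes were at 974.7 CPM in Lsr Postn Foxp2 cells, 4932 CPM in Npy Ndufa4l2 Pgf cells, and 1014 to 1299 CPM in the other 3 sets and the cells of no set. Glycolysis genes were at 3213 CPM in Lsr Postn Foxp2 cells, 12213 CPM in Npy Ndufa4l2 Pgf cells, and 3328 to 4177 CPM in the others.

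Immune genes split by class. Of 7 chemokine and scavenger genes measured, 0 were higher and 3 at least 2-fold lower: Ccl2 of the rule, Ccl7 (122 CPM in Lsr Postn Foxp2 cells and 270 CPM in other eligible LEC) and Cxcl10. The scavenger receptor Ackr3 was 1.32-fold higher (1.18 to 1.47). All 3 measured MHC class II genes were lower, Cd74 of the rule at 23.8 and 65.7 CPM, H2-Ab1 at 11.3 and 41.4 CPM and H2-Aa at 6.81 and 15.7 CPM. Other eligible LEC hold the set chosen for high Cd74 and Ccl2, and cells of no set are low in both by the rule. Ccl7 was at 122 CPM in Lsr Postn Foxp2 cells and 35.3 CPM in cells of no set, and Cd74 at 23.8 and 4.22 CPM, so the direction depended on the cells compared. Of 8 MHC class I genes 0 were 2-fold apart and 7 had a ratio above 1, among them H2-D1 (1.30) and H2-K1 (1.28). Interferon genes had 0 of 12 genes 2-fold apart, and of 7 adhesion genes Vcam1 of the rule was the 1 lower gene.

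Fatty acid and growth factor genes were mixed. Lipoprotein lipase (Lpl) was at 58.3 CPM in Lsr Postn Foxp2 cells and 17.2 CPM in other eligible LEC, 3.38-fold higher (2.72 to 4.18), the 1 fatty acid gene of 6 that was higher. Gpihbp1, which binds that enzyme on blood endothelium, was 2.103-fold lower (1.88 to 2.36) and Fabp5 2.22-fold lower (1.88 to 2.65), while Fabp4 had a ratio of 0.753 and Pparg was 1.87-fold higher. Gpihbp1 was short of 2-fold in 8 alternatives, with a log2 ratio of -0.64 without cells with blood endothelial UMIs and -0.68 without clusters 9, 10 and 12, and Fabp5 in 5, down to -0.88 with the score drawn without Lsr. Of 7 insulin-like growth factor genes, Igf1 was higher (58.0 and 28.4 CPM) and Igfbp3 lower. Igfbp5, a gene of the Tppp3 Igfbp5 set, was at 693 and 537 CPM, and Igfbp4 and Igfbp7 had ratios of 0.802 and 0.778. Dissociation genes had 0 of 13 genes 2-fold apart and a median of 0.14, with Fos at a ratio of 1.03, Dusp1 at 0.977, Jun at 1.26 and Junb at 1.32.

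Cell cycle transcripts were lower than in the other eligible cells as a whole. Of 9 measured, 7 were at least 2-fold lower and the median log2 ratio was -1.30; Ube2c was at 18.9 CPM in Lsr Postn Foxp2 cells and 64.2 CPM in other eligible LEC, Birc5 at 27.3 and 64.4 CPM, and Tyms at 77.2 and 93.2 CPM. When each cell was thinned to 5000 UMIs before the score, the median was -0.37, with Ube2c at -0.70 and Birc5 at -0.50. Thinned to 2000 UMIs, 5.81% of Lsr Postn Foxp2 cells (4.06 to 8.03%) and 8.85% of other eligible LEC (7.92 to 9.85%) had at least 2 UMIs over a list of 10 cell cycle genes. Since 69.5% of nonzero values in the LEC sort before thinning were 1 to 4 and 14.9% were 1, a single gene's entry can reach this minimum. The unthinned shares were 29.9% and 32.9%. Cells with UMIs of at least 2 different genes of the list made up 2.56% of Lsr Postn Foxp2 cells and 4.78% of other eligible LEC after thinning. The low level was shared with 1 other set. Summed over the list, cell cycle genes were at 207 CPM in Lsr Postn Foxp2 cells and 206 CPM in Npy Ndufa4l2 Pgf cells. They were at 332 to 606 CPM in the other sets and the cells of no set. The share with at least 2 UMIs, thinned to 2000 UMIs, was 5.95% (3.92 to 8.60%) in Npy Ndufa4l2 Pgf cells.

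The Cd24a Scn3a cells were the more distant of the 2 large sets. Against them 168 of 7688 genes (2.19%) were at least 2-fold higher in Lsr Postn Foxp2 cells and 125 (1.63%) at least 2-fold lower, 293 (3.81%) in all. Cmah was 14.9-fold higher (10.96 to 20.8), Thbd 5.94-fold higher (4.85 to 7.34), Htr2b 5.92-fold higher (4.95 to 7.11) and Tmem158 7.36-fold higher (5.59 to 9.83). Neo1 was at 8.52 CPM in Lsr Postn Foxp2 cells and 66.6 CPM in Cd24a Scn3a cells, and Fn1 at 299 and 783 CPM. Of 18 matrix genes measured 7 were higher and 4 lower, and of 7 chemokine and scavenger genes 4 were higher and 0 lower.

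Against the Tppp3 Igfbp5 cells 102 of 7629 genes (1.34%) were at least 2-fold higher in Lsr Postn Foxp2 cells and 114 (1.49%) at least 2-fold lower, 216 (2.83%) in all. Clu was 4.56-fold higher (3.81 to 5.48), Mfap2 3.84-fold higher (3.09 to 4.82) and Cmah 3.24-fold higher (2.74 to 3.85). Thbd (ratio 1.09, 0.969 to 1.23), Htr2b (0.956, 0.864 to 1.06) and Tek (1.11) were close in the 2 sets. Igfbp3 was at 62.0 CPM in Lsr Postn Foxp2 cells and 371 CPM in Tppp3 Igfbp5 cells, and Lyve1 at 1413 and 2700 CPM. Against the 959 cells of no set, 98 of 7685 genes (1.28%) were at least 2-fold higher and 171 (2.23%) lower, 269 (3.5%) in all, with Cmah 4.85-fold (4.07 to 5.80) and Mfap2 4.35-fold higher (3.55 to 5.36). These comparisons share the Lsr Postn Foxp2 cells.

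Markers of other cell types were present at low levels, and their part in the ratios above was not tested beyond leaving out cells. Of 8 fibroblast markers, Col1a1, Col1a2 and Col3a1 were at 25.03, 34.3 and 64.3 CPM in Lsr Postn Foxp2 cells and 1.06, 1.44 and 3.25 CPM in other eligible LEC. Of 4 fibroblast markers measured, these 3 had a ratio above 1 and decorin (Dcn) did not. Nearly all of the collagen UMIs lay in 10 Lsr Postn Foxp2 cells with at least 3 stromal UMIs. Those cells held 98.4% of the Col1a1 UMIs and 98.6% of the Col3a1 UMIs, but 44.9% of the 748 Dcn UMIs. The same 10 cells held 23.5% of the Bgn UMIs but 4.74% of Postn, 3.83% of Mfap2, 1.56% of Lsr and 1.13% of Cmah, and 39 other eligible cells also had such UMIs. The minimum is low, since 3 was itself the value of 20.8% of nonzero entries. Summed over the list, fibroblast markers were at 253 CPM in Lsr Postn Foxp2 cells and 200.3 CPM in other eligible LEC. Without the cells carrying stromal UMIs the sums were 57.1 and 194 CPM, and the 1 marker then measured had a log2 ratio of -1.79. Without those cells Postn was 41.5-fold higher and Cmah 6.03-fold higher.

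Of 12 blood endothelial markers, 9 were measured and 4 were at least 2-fold lower, with Flt1 at 4.59 CPM in Lsr Postn Foxp2 cells and 35.3 CPM in other eligible LEC. Their sum was 2082 and 1317 CPM, of which Plvap made 1610 and 807 CPM, and Emcn was 1.67-fold higher (1.52 to 1.83). The BEC sort held 4800 CPM of Plvap and 1157 CPM of Flt1. Among the eligible cells Flt1 was highest in cluster 10, at 873 CPM, a cluster of 66 cells with 7 Lsr Postn Foxp2 cells. Mural markers summed to 72.2 and 60.04 CPM, with Myh11 at 0 in Lsr Postn Foxp2 cells. Of 3 measured, 1 was at least 2-fold higher and 1 lower. Without the cells carrying stromal UMIs the sums were 22.8 and 53.6 CPM. The 10 Lsr Postn Foxp2 cells with stromal UMIs held 97.9% of the 145 Rgs5 UMIs of the Lsr Postn Foxp2 cells. Macrophage markers summed to 27.8 and 91.6 CPM, with Adgre1, Csf1r, C1qa and Fcgr1 at 0 in Lsr Postn Foxp2 cells. Leukocyte markers summed to 1.44 and 3.82 CPM, with Ptprc and Laptm5 at 0 in Lsr Postn Foxp2 cells, and Krt5, Krt14 and Cdh1 at 0 among the epithelial ones. The T and NK, adipocyte, skeletal muscle, keratinocyte and erythroid lists summed to at most 13.2 CPM each in Lsr Postn Foxp2 cells and 19.7 CPM in other eligible LEC, and the platelet list to 28.8 and 42.5 CPM. Pigment transcripts summed to 129 and 146 CPM, with Dct at 102 and 107 CPM against 16288 CPM in pigmented cells, and Schwann markers summed to 50.8 and 71.6 CPM.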

How the data were processed

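Cells of the LEC and BEC sorts were profiled with the 10x Chromium 3′ v2 kit, per the labels' protocols, and processed with Cell Ranger 2.1.1 on mm10, per the submitters' processing notes. How the authors filtered cells is not given in those notes. The authors deposited 1 matrix of unnormalized UMI counts, with 28692 gene symbols in rows and cells in columns. Columns give the sort and no library.

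UMIs were summed per set of cells and scaled to CPM, without a pseudocount. Ratios have exact conditional binomial intervals and shares exact Clopper-Pearson intervals, at the 95% level; count intervals used counts divided by 3.13, the median ratio of variance to mean. A gene was measured at a mean of 10 CPM or more over both groups, and set apart at 2-fold. At the summed depth 3 counts, times that 3.13, were 1.23 CPM in Lsr Postn Foxp2 cells and 0.222 CPM in the other eligible cells, the limit a count of 0 allows. Clustering used CP10K and log1p values, 2000 variable genes without the 13 rule genes, 30 components, 15 neighbours and Leiden resolution 1. Tools were Python 3.11.15, numpy 2.4.6, scipy 1.17.1, pandas 2.3.3, scanpy 1.11.5, scikit-learn 1.9.0, python-igraph 0.11.9 and matplotlib 3.10.9. The ratio step and its intervals were tested on simulated data. No doublet caller was run; cells with blood endothelial or stromal UMIs were left out in alternatives.

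The rule for named genes took the 3 rule genes, the 15 highest and the 15 lowest ratios among genes at 50 CPM and with a UMI in 25% of cells of the higher group, all measured members of the collecting, capillary and angiopoietin-Tie lists, and the 4 most abundant members of each other list. The ranking skipped mitochondrial, ribosomal and haemoglobin genes and gene models without a name. Other genes were named after their values were seen. The cells and lists were chosen with earlier results of these data known. Gene positions are from GENCODE M21. A few genes that the rule would name are not reported here.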

Additional observations from a re-analysis of the deposited data

How the results depend on the processing

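With members required to have UMIs of at least 2 of the 3 genes, 212 cells remained. The share of Lsr Postn Foxp2 cells in the leading cluster was then 78.3%, 61.4% at a z over 1, and 65.3% at clustering resolution 0.5, where that cluster also held 27.7% of the other eligible cells. Counts of genes at least 2-fold apart depended on these choices. At UMIs of at least 2 genes, 126 were higher and 227 lower against other eligible LEC (62 and 121 of them shared with the main counts), 179 and 212 against Tppp3 Igfbp5 cells, and 229 lower against Cd24a Scn3a cells. At a mean of 50 CPM or more, the counts were 21 and 34 against other eligible LEC, 29 and 23 against Tppp3 Igfbp5 cells, and 57 and 27 against Cd24a Scn3a cells. With no filter on low values they were 1033 and 1006, 938 and 926, and 1011 and 934, since genes with few UMIs enter. The filters also change how many genes are measured, so counts under different filters are not on 1 scale. The cycling share was 29.9% without thinning and 2.56% for UMIs of at least 2 genes.

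With the cells of no set as the comparison, chosen after seeing the data, the log2 ratio of 7 genes turned positive: Pgf (0.11), Ccl2 (2.51), Tppp3 (0.54), Ccl7 (1.79), Cd74 (2.50), H2-Ab1 (0.35) and H2-Aa (0.75). The MHC class II median was then 1.42. Pgf, Ccl2, Tppp3 and Cd74 are genes of the rule, and cells of no set are low in all 5 sets by definition, so nothing is read from this turn. Of 144 named genes, 43 were at least 2-fold apart, among them genes of the rule, whose separation the rule sets. Of their 731 values under the alternatives, 671 were at least 2-fold apart in either direction. The alternatives that change only the filter on low values leave a gene's ratio as it is, so their values repeat the main ones. The count of 671 includes these repeats and is no measure of stability. It also includes Ccl2, Ccl7 and Cd74 against cells of no set, where the direction had turned. Size factors in place of totals moved log2 ratios by at most 0.02.

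No paired analysis was possible because the columns carry no library or replicate number. With 1 sample per sort, no value has an error between animals or libraries. Intervals rest on 1 factor of 3.13 for all genes, and they are wide for low genes, as for Neo1 (2.27 to 5.77-fold lower). The same cells chose the set and gave its levels, so ratios of rule genes state the rule.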
